A study of Mus musculus with 10 samples.

Results

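The genes described here handle thyroid hormone in the heart, and they were taken by name from the deposited gene tables: the receptors Thra and Thrb, the deiodinases Dio2 and Dio3, the transporter Slc16a10, the cytosolic binding protein Crym, and the hormone-responsive regulators Klf9 and Hr. These are 8 of the 55401 genes in the tables, and all 8 were found in each table. RNA sequencing was performed on left ventricle (LV) tissue of 5 mice with neonatal ascending aorta constriction (nAAC), a model of the pressure-overloaded LV, and of 5 mice with sham surgery. All 10 mice were wild type, from C57BL/6 breeding pairs, were operated on within a day of birth, stayed with their mothers and were sampled at 4 weeks of age. The samples were whole tissue, so cardiomyocytes, fibroblasts and other cells were measured together, and no plasma hormone level was used here. The sex of each mouse was recorded in the study but was not used here, so its balance between the groups is not shown. Xist, an RNA expressed in females, was a covariate in an alternative fit. The labels give no sequencing batch.

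Thyroxine (T4) is the main hormone released by the thyroid, and triiodothyronine (T3) is the form that binds the nuclear receptors best. Dio2 makes T3 from T4 inside the cell, Dio3 inactivates both hormones, and membrane carriers such as Slc16a10 move them across the cell surface. Receptors on DNA hold T3 target genes low with corepressors when no hormone is bound and raise them with coactivators when it is bound. In the rodent heart T3 is known to raise Myh6 and Atp2a2 and to lower Myh7 and Pln, as the ventricle changes from its fetal to its adult form after birth.

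Expression is given as FPKM, the fragments of a gene scaled to its transcript length and to the depth of the library, which is a level per length. A log2 fold change (log2 FC) is the nAAC mean minus the sham mean of log2(FPKM + 1), from limma across the 11867 genes whose mean FPKM over all mice reached 1, and it understates the change of genes with low FPKM. Genes were called at an adjusted P below 0.05, and were named DEGs where the absolute log2 FC was also above 1. Dio2 and Hr rose in nAAC mice and were both DEGs, Klf9 fell, and Thra, Thrb and Slc16a10 were not called. Dio3 and Crym were below the filter and were tested alone. Thus 2 of 6 tested genes were called higher, where 27.1% of all genes tested were, and 1 of 6 was called lower, where 4.6% were. DEGs with higher expression made up 5.01% of all genes tested. The groups did not overlap in 3 of the 6, with nAAC mice higher for Dio2 and Hr (18.9% of all genes tested) and lower for Slc16a10 (3.46% of all).

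**Figure D1:**
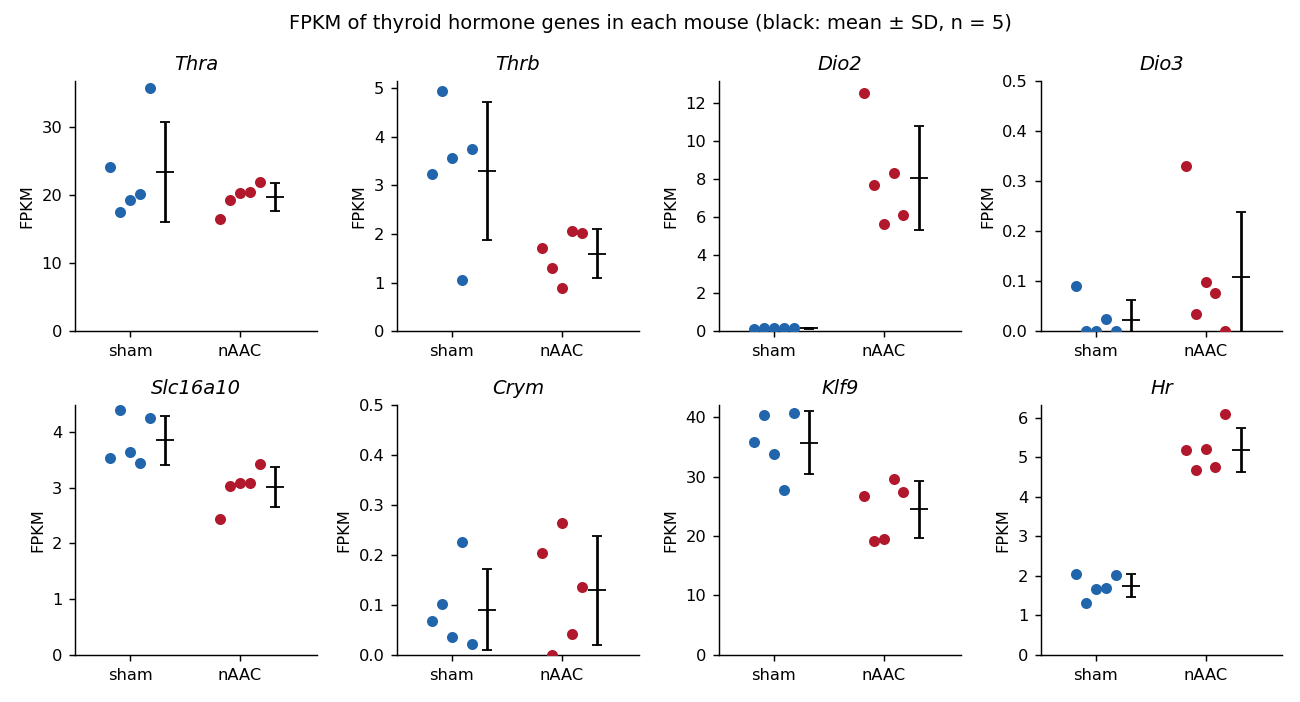
FPKM (vertical axes, linear, from 0) of each gene in the 5 sham mice (blue) and the 5 nAAC mice (red), with the mean ± SD in black. Dio2 is at 0.118 to 0.193 in sham mice and at 5.63 to 12.5 in nAAC mice, whereas Thra and Crym overlap between the groups.

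The libraries held an estimated 4.86 to 6.82 gigabases in nAAC mice and 5.06 to 5.24 gigabases in sham mice, so nAAC 1 was the deepest. The library of sham 4 stood apart from the others on the second principal component of all tested genes, at -45.2 where the next lowest, sham 5, was at -15.1. Mitochondrial genes took 32.8 to 39.9% of TPM in nAAC mice and 33.7 to 49.8% in sham mice. Over all genes tested the log2 FC had a median of 0.22, and of -0.00 after the libraries were rescaled by the median of their gene ratios. This rescaling changed calls of single genes and the counts of several lists, and its values are given for some of the genes named below. Of 12 cardiomyocyte markers 1 rose and 2 fell (1 and 4 with median-ratio scaling), and their summed FPKM was 15667 to 26434 in nAAC mice and 18540 to 39588 in sham mice, so the tissue was heart muscle by its defining genes.

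Thra, on chr11:98740638-98769006 of mm10 (plus strand, ENSMUSG00000058756), encodes the main thyroid hormone receptor of the heart. Its FPKM was 16.4, 19.2, 20.2, 20.4 and 21.9 in nAAC mice 1 to 5, and 24.1, 17.5, 19.3, 20.1 and 35.7 in sham mice 1 to 5. The groups overlapped, and sham 5 was above every other mouse. The means were 19.6 ± 2.02 in nAAC mice and 23.3 ± 7.31 in sham mice (SD, n = 5 each), with a log2 FC of -0.20 (SE 0.17, 95% CI -0.57 to 0.18, limma adjusted P = 0.399). In a test of this gene alone, the exact permutation P was 0.381 (two-sided, n = 5 each). With median-ratio scaling the log2 FC was -0.47 (limma adjusted P = 0.0299), so that the call of Thra depends on how the libraries are scaled.

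The gene model of Thra holds 9 transcripts in GENCODE M21, and the gene-level values do not separate the hormone-binding receptor from the variant that does not bind hormone. Thra also shares 263 exonic bases (chr11:98768157-98768419, 5.70% of its exonic bases) with Nr1d1, the clock repressor Rev-erb alpha, which lies on the opposite strand. Whether the counting used strand is not given in the sources used here, so reads of that stretch cannot be told apart. Nr1d1 was at 14.2 to 25.0 FPKM in nAAC mice and 17.8 to 35.9 FPKM in sham mice (log2 FC -0.58, limma adjusted P = 0.0404).

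Thrb, on chr14:17660261-18038090 (plus strand, ENSMUSG00000021779), encodes the beta receptor. Its FPKM was 1.72, 1.30, 0.890, 2.07 and 2.01 in nAAC mice 1 to 5, and 3.23, 4.95, 3.56, 1.05 and 3.75 in sham mice 1 to 5. Sham mice 1, 2, 3 and 5 were above all nAAC mice, and sham 4 lay within the nAAC range. The means were 1.60 ± 0.499 and 3.31 ± 1.42 (SD, n = 5 each), a sham level 2.07 times the nAAC level, with a log2 FC of -0.67 (SE 0.24, 95% CI -1.20 to -0.14, limma adjusted P = 0.0527). The exact permutation P for Thrb alone was 0.0476. The call depended on sham 4 and on the scaling. Without sham 4 the log2 FC was -0.92 (limma adjusted P = 0.000998). With median-ratio scaling and all mice it was -0.86 (limma adjusted P = 0.0238). In whole tissue, fewer cells of a type and less RNA per cell cannot be told apart.

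The level of Thrb rests on thin coverage. Its deposited FPKM was 33.3 to 54.0 times its depth-scaled coverage, whereas for Dio2, a gene of 1 transcript, both columns gave the same level. The depth-scaled coverage of Thrb was 0.0189 to 0.0511 in nAAC mice and 0.0244 to 0.103 in sham mice, and its sham mean was 2.21 times its nAAC mean. The direction was thus the same in both columns, while the FPKM level of Thrb against other genes is uncertain.

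The ratio of Thra to Thrb within each mouse does not depend on a scale factor shared by all genes of a library. It can still carry trends with gene length and GC, and it was not tested with these removed. The log2 FC was -0.20 for Thra and -0.67 for Thrb as deposited, and -0.62 and -0.83 with those trends removed. The ratio was 9.56, 14.8, 22.7, 9.85 and 10.9 in nAAC mice 1 to 5, and 7.47, 3.54, 5.41, 19.2 and 9.51 in sham mice 1 to 5. Every nAAC mouse was above sham mice 1, 2, 3 and 5, and sham 4 was above 4 of the nAAC mice. On the log2 scale the ratio was 3.68 ± 0.526 in nAAC mice and 2.93 ± 0.914 in sham mice, a difference of 0.74 (exact permutation P = 0.135, adjusted over 2 ratios 0.135, n = 5 each). Without sham 4 the difference was 1.08 (exact permutation P = 0.0159).

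Dio2, on chr12:90724552-90738438 (minus strand, ENSMUSG00000007682), encodes the deiodinase that makes T3 from T4 in tissues. Its FPKM was 12.5, 7.67, 5.63, 8.32 and 6.13 in nAAC mice 1 to 5, and 0.118, 0.153, 0.193, 0.153 and 0.176 in sham mice 1 to 5. The lowest nAAC mouse was far above the highest sham mouse, and nAAC 1 was the highest of all. The means were 8.06 ± 2.74 and 0.159 ± 0.0284 (SD, n = 5 each), a ratio of 50.8. The sham level behind this ratio rests on a coverage of 0.598 to 1.01 reads per base, beside 29.2 to 85.6 reads per base in nAAC mice, so the size of the ratio is less certain than its direction. The log2 FC was 2.92 (SE 0.17, 95% CI 2.56 to 3.28, limma adjusted P = 1.31e-07), and the exact permutation P was 0.00794, the smallest that 5 against 5 mice can give. Dio2 ranked 27 of 11867 genes by log2 FC and 16 with 0.1 in place of 1 as the pseudocount, where its log2 FC was 4.93. In sham mice it ranked 11842 of 11867 by mean FPKM, among the lowest genes tested, and it passed the filter through its level in nAAC mice. The noncoding gene Gm26512 on the opposite strand shares 100 exonic bases with Dio2 and was at or below 0.311 FPKM in every mouse.

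Both deiodinases need selenocysteine, which is inserted at a TGA codon that would otherwise end translation. The annotated selenocysteine codons of Dio2 and Dio3 are shown as a feature of both genes. They are on the gene's strand in GRCm38, read 5′ to 3′ from GENCODE M21 transcripts, with the codon in capitals and 15 bases on each side.
Dio2, chr12:90729808-90729840: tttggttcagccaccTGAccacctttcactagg
Dio2, chr12:90729409-90729441: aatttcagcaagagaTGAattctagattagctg
Dio3, chr12:110279724-110279756: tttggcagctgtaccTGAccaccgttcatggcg
The first Dio2 window had the same base as the Dio3 window at 21 of 33 positions, and the second had the same base at 12 of 33.

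The promoter of Dio2 is shown because this gene changed most, and that of Klf9 because it is the gene of the set called lower. Each line gives the 250 bases before the RefSeq start (GRCm38.p6, 5′ to 3′ on the gene's strand), and capitals mark matches to the motifs searched.
Dio2, chr12:90739039-90739288, minus strand: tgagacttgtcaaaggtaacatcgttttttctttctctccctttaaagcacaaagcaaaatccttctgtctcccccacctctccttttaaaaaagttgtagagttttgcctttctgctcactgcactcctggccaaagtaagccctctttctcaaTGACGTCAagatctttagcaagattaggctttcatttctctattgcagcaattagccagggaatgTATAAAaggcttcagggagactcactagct
Klf9, chr19:23140976-23141225, plus strand: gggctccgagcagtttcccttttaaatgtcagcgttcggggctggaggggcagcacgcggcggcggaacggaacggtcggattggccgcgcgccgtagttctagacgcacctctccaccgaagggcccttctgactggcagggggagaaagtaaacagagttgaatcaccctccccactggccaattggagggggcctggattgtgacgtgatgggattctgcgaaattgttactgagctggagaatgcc

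The motifs were the receptor hexamer AGGTCA, a pair of such hexamers with 4 bases between them (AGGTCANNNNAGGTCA, in which each pair also counts as a hexamer), the cAMP response element TGACGTCA, and TATAAA. The first 3 were searched on both strands and TATAAA on the gene's strand, and the last 2 motifs were added after the other results were known. The Dio2 window held TGACGTCA at 87 bases and TATAAA at 24 bases before the start, and neither the hexamer nor the pair. The Klf9 window held none of the 4 motifs. Over 32851 promoter windows of 250 bases, 14.0% held the hexamer, 0.0152% the pair, 1.55% TGACGTCA and 7.59% TATAAA. The RefSeq start of Dio2 lies 600 bases beyond the end of the gene in the deposited tables. Windows of 5 of the 8 genes were found, Thrb with a pair of starts, and the hexamer stood in 1 of the windows of Thrb, 178 bases before the start. TATAAA was not particular to Dio2, since it also stood 25 bases before the start of Dio3 and 161 bases before the other start of Thrb.

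Brown fat is the tissue best known for Dio2, and adipose genes were therefore examined, with mixed levels. Ucp1 was at 0.0410 FPKM in nAAC 2 and at 0 in the other mice. Adipoq was at 0 in every nAAC mouse and at 0.0786 to 0.308 FPKM in sham mice, and Plin1 was at or below 0.371 FPKM in every mouse. Cidea was the only one of 7 adipose markers to pass the filter, and it was at 14.0 to 24.1 FPKM in nAAC mice and 4.81 to 17.5 FPKM in sham mice (log2 FC 0.97, limma adjusted P = 0.0178), with a log2 FC of 0.71 and a limma adjusted P of 0.0549 under median-ratio scaling. Cfd was at 0 to 0.489 FPKM in nAAC mice and 0.0968 to 2.38 FPKM in sham mice. The part of adipose cells in the Dio2 result was not tested. Of 8 fibroblast markers 6 rose (4 with median-ratio scaling, without Dcn and Lum), of which Dcn and Lum were called in 3 and 2 of the 10 fits that left out 1 mouse each, and their summed FPKM was 561 to 978 in nAAC mice and 384 to 415 in sham mice. Postn, a matrix protein of activated fibroblasts, was at 90.6 to 261 FPKM and 6.34 to 17.0 FPKM. The part of fibroblasts in the Dio2 result was not tested.

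Dio3, on chr12:110279068-110281097 (plus strand, ENSMUSG00000075707), encodes the deiodinase that inactivates T4 and T3. Its FPKM was 0.329, 0.0343, 0.0993, 0.0756 and 0 in nAAC mice 1 to 5, and 0.0902, 0, 0, 0.0250 and 0 in sham mice 1 to 5. Thus 4 nAAC mice and 2 sham mice had any signal, and the groups overlapped. The difference on the log2(FPKM + 1) scale was 0.11 (exact permutation P = 0.167, n = 5 each), and at these levels a difference was not detectable. The highest value was in nAAC 1, the deepest library and the mouse with the most Dio2.

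Dio3os, the noncoding gene 895 bases from Dio3 on the opposite strand, and Dlk1, the gene of a secreted growth regulator at the other end of this imprinted region, were chosen from their list after their values were seen. Dio3os was at 0.107 to 0.642 FPKM in nAAC mice and 0 to 0.0743 FPKM in sham mice, and Dlk1 was at 0 to 0.0123 FPKM in nAAC mice and 0.0298 to 0.0968 FPKM in sham mice. The groups thus did not overlap for either, in opposite directions, and both genes were below the filter. Since both were chosen with these values known, this is a description only. Rtl1 and Mirg, the other genes of the list below the filter, overlapped between the groups. Meg3 and Rian, maternally expressed noncoding RNAs of the imprinted Dlk1-Dio3 region, were the only 2 of 6 genes of that region tested, and both rose. Meg3 was at 3.42 to 5.42 FPKM in nAAC mice and 1.19 to 1.83 FPKM in sham mice (log2 FC 1.19, limma adjusted P = 1.29e-05), and Rian had a log2 FC of 0.92 (limma adjusted P = 0.000821).

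The balance of activating to inactivating deiodinase was taken as the log2 ratio of Dio2 to Dio3 with 0.1 FPKM added to both. It was 4.88, 5.85, 4.85, 5.58 and 5.96 in nAAC mice 1 to 5, and 0.20, 1.34, 1.55, 1.02 and 1.46 in sham mice 1 to 5. All nAAC mice were above all sham mice. The difference of the means, 5.43 ± 0.531 against 1.11 ± 0.552 (SD, n = 5 each), was 4.31 (exact permutation P = 0.00794, adjusted over 2 ratios 0.0159). This ratio is carried mostly by Dio2, since Dio3 was at or near 0. Dio1, the deiodinase of liver and kidney, was at 0 FPKM in all 10 mice.

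Slc16a10, on chr10:40033532-40142258 (minus strand, ENSMUSG00000019838), encodes a carrier of aromatic amino acids and of T3 and T4. Its FPKM was 2.43, 3.02, 3.08, 3.09 and 3.42 in nAAC mice 1 to 5, and 3.53, 4.39, 3.64, 3.43 and 4.25 in sham mice 1 to 5. The groups did not overlap, although the highest nAAC mouse and the lowest sham mouse, nAAC 5 and sham 4, were only just apart. In TPM (4.03 to 5.66 in nAAC mice, 4.96 to 6.71 in sham mice) and in depth-scaled coverage (0.676 to 1.08 and 0.974 to 1.29) the groups overlapped, and the log2 FC was -0.15 with TPM and -0.13 with depth-scaled coverage. The means were 3.01 ± 0.358 and 3.85 ± 0.438 (SD, n = 5 each). The log2 FC was -0.27 (SE 0.11, 95% CI -0.50 to -0.04, limma adjusted P = 0.0665), and the exact permutation P was 0.00794. Slc16a10 passed the threshold without sham 4 (log2 FC -0.30, limma adjusted P = 0.0409) and with median-ratio scaling (log2 FC -0.49, limma adjusted P = 0.00334).

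Crym, on chr7:120186380-120202111 (minus strand, ENSMUSG00000030905), encodes a cytosolic protein that binds T3. Its FPKM was 0.203, 0, 0.264, 0.0416 and 0.135 in nAAC mice 1 to 5, and 0.0684, 0.102, 0.0358, 0.226 and 0.0215 in sham mice 1 to 5. The groups overlapped over most of their range, and the difference on the log2(FPKM + 1) scale was 0.05 (exact permutation P = 0.556, n = 5 each). Crym was thus below 0.3 FPKM in every mouse, and a difference was not detectable.

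Klf9, on chr19:23141226-23168134 (plus strand, ENSMUSG00000033863), encodes a zinc finger regulator that is known to be induced directly by T3 and also by glucocorticoids. Its FPKM was 26.7, 19.2, 19.5, 29.6 and 27.4 in nAAC mice 1 to 5, and 35.9, 40.4, 33.7, 27.8 and 40.6 in sham mice 1 to 5. Sham 4 alone fell within the nAAC range, and the other sham mice were above all nAAC mice. The means were 24.5 ± 4.80 and 35.7 ± 5.31 (SD, n = 5 each), with a log2 FC of -0.53 (SE 0.16, 95% CI -0.87 to -0.20, limma adjusted P = 0.0204). The exact permutation P was 0.0159. The call was lost with TPM in place of FPKM (log2 FC -0.37, limma adjusted P = 0.106), and without nAAC 2 (-0.46, 0.0544) or nAAC 3 (-0.46, 0.0555). It was kept in 10 of 11 alternatives and in 8 of 10 fits that left out 1 mouse. With median-ratio scaling the log2 FC of Klf9 was -0.81 (limma adjusted P = 0.00153).

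None of 7 other glucocorticoid targets was called in either direction by limma, and 2 had an unadjusted P below 0.05. They included Fkbp5 at 5.54 to 12.9 FPKM in nAAC mice and 3.59 to 7.17 FPKM in sham mice (log2 FC 0.57, limma adjusted P = 0.0618) and Tsc22d3 (log2 FC 0.08, limma adjusted P = 0.763). Klf15 had a log2 FC of -0.34 (limma adjusted P = 0.112) and was called lower with median-ratio scaling (log2 FC -0.60, limma adjusted P = 0.00376). Klf9 also oscillates with the circadian clock in many tissues. Of 13 clock genes tested 3 rose (Per2, Cry1 and Bhlhe41) and 3 fell (Nr1d1, Nr1d2 and Hlf), although Nr1d1 was called in 2 and Nr1d2 in 3 of the 10 fits that left out 1 mouse each. With median-ratio scaling 2 were higher and 4 lower, since Per2 was no longer called (log2 FC 0.33, limma adjusted P = 0.0878) and Tef was called lower (log2 FC -0.34, limma adjusted P = 0.0195). Dbp, which has one of the widest daily swings, ranged from 33.4 to 67.4 FPKM in nAAC mice and from 31.3 to 97.2 FPKM in sham mice (log2 FC -0.01, limma adjusted P = 0.989). The hour of sampling is not given in the sources used here, and its part in the Klf9 result was not tested.

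Hr, on chr14:70552212-70573548 (plus strand, ENSMUSG00000022096), encodes Hairless, a corepressor that binds thyroid hormone receptors and whose gene is known to be raised by T3 in brain. Its FPKM was 5.19, 4.69, 5.20, 4.74 and 6.09 in nAAC mice 1 to 5, and 2.05, 1.32, 1.68, 1.68 and 2.01 in sham mice 1 to 5. Every nAAC mouse was above every sham mouse, with a narrow spread in both groups. The means were 5.18 ± 0.562 and 1.75 ± 0.297 (SD, n = 5 each), a ratio of 2.96. The log2 FC was 1.17 (SE 0.11, 95% CI 0.93 to 1.41, limma adjusted P = 6.7e-06), rank 418 of 11867, and the exact permutation P was 0.00794. Hr was called in every alternative fit, but its log2 FC was 0.96 with median-ratio scaling and 0.68 with length and GC trends removed, under the limit for a DEG. The T3-responsive regulators Klf9 and Hr thus moved in opposite directions in the same mice.

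**Figure D2:**
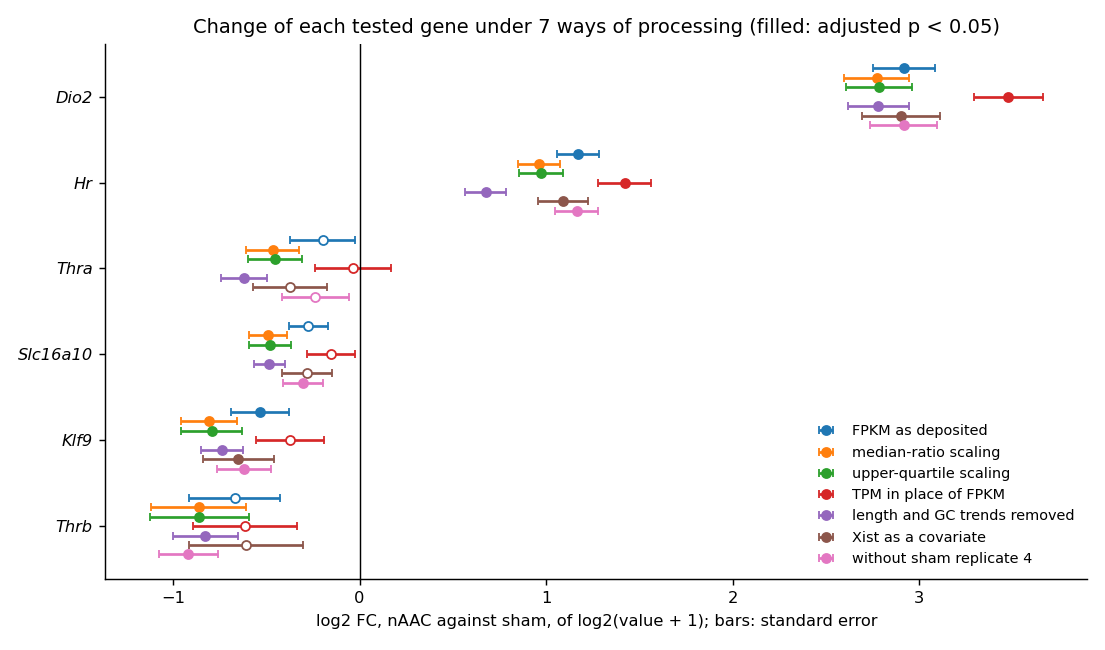
Log2 FC of the 6 tested genes (horizontal axis, nAAC against sham, ± SE) with FPKM as deposited and under 6 other ways of processing (colours), filled where the limma adjusted P is below 0.05. Dio2 and Hr are to the right of 0 and filled throughout, while Thra, Thrb and Slc16a10 are left of 0 and filled only in some.

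In sham mice the order of mean FPKM was Klf9, Thra, Slc16a10, Thrb, Hr, Dio2, Crym and Dio3. The ranges of neighbours in that order overlapped except between Thra and Slc16a10 and between Hr and Dio2. In nAAC mice the order was Klf9, Thra, Dio2, Hr, Slc16a10, Thrb, Crym and Dio3. There, the ranges overlapped between Klf9 and Thra, between Dio2 and Hr, and between Crym and Dio3, and the other neighbours were apart. In FPKM, Dio2 thus moved from below Hr to the level of Hr or above it. The rank of Thrb in both orders carries the limit on its FPKM given above. Other ranks also depended on the unit. In depth-scaled coverage of nAAC mice, Dio2 was at 5.63 to 12.5. This was above Klf9 (3.35 to 5.18), Hr (3.40 to 4.24) and Thra (2.96 to 3.79). In depth-scaled coverage of sham mice, the mean of Hr (1.30) was above that of Slc16a10 (1.10).

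For each tested gene, the 3 genes that varied most like it among the 10 mice, after the group means were taken out, were found by Pearson's r among genes of mean FPKM 5 or more. For Dio2 they were Ltbp2 (r = 0.96), Lox (r = 0.95) and Mfap5 (r = 0.94). For Thrb they were Pum2, Atrx and Ralgapa1, each with r = 0.98, and r was 0.94 to 0.95 without sham 4. For Thra they were Trak1, Cluh and Zmiz2 (r = 0.96 to 0.97), for Klf9 Epb41l2, Apbb2 and Wasf2 (r = 0.96 to 0.98), for Slc16a10 Gm14269, Gm39214 and Cnot2 (r = 0.86 to 0.88), and for Hr Gde1, Abtb2 and Slc2a8 (r = 0.77 to 0.81). These are the highest of 6504 or 6505 values for each gene, over mice that share library depth and composition, and they are given as a description. The values for Dio2 rest mostly on the nAAC mice, since Dio2 was at 0.118 to 0.193 FPKM in sham mice. Its Spearman's rho was 0.87 with Ltbp2, 0.89 with Lox and 0.65 with Mfap5.

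The rest of the pathway was taken from lists of 86 other genes, of which 71 were tested. Of these 16 were called higher and 10 lower, where 27.1% and 4.6% of all genes tested were. Their median log2 FC was 0.10, beside 0.22 for all genes tested. With median-ratio scaling 9 were higher and 22 lower, beside 1563 and 1431 of all 11867 genes tested. The median was then -0.14 beside -0.00 for all genes, so the balance of directions depends on the scaling.

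**Figure D3:**
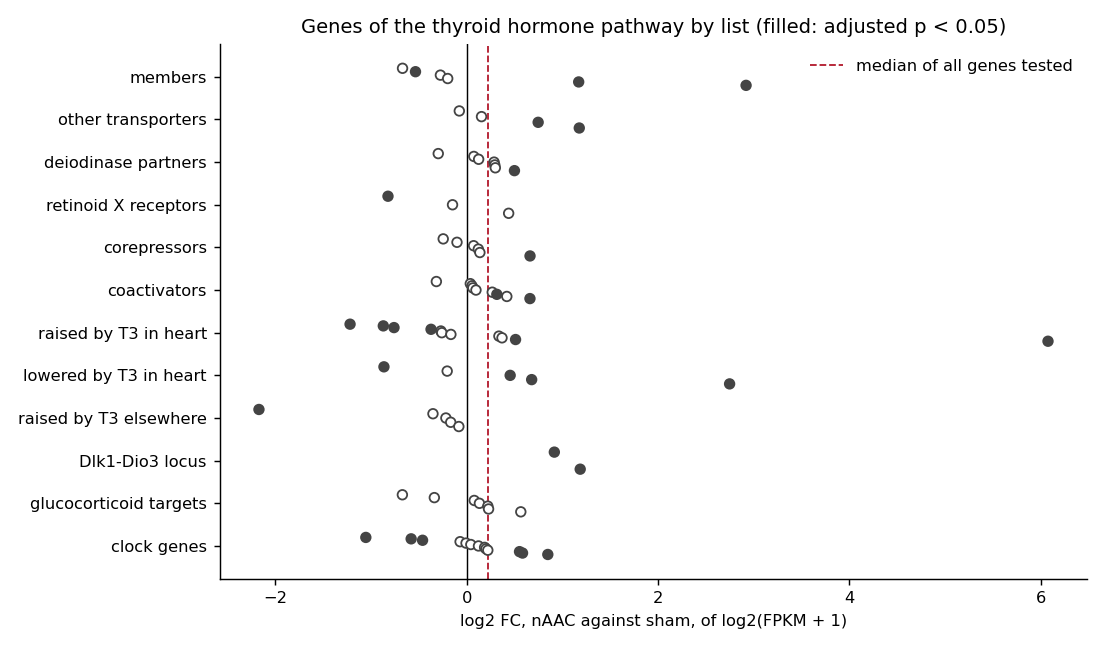
Log2 FC (horizontal axis, nAAC against sham) of the tested genes of each list (rows), 1 circle a gene, filled where the limma adjusted P is below 0.05, with the median of all genes tested (0.22) as a dashed line. Nppa at 6.07 is the point farthest right, and Ucp3 at -2.17 the point farthest left.

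Among 10 other genes of thyroid hormone carriers, which include the heavy chain Slc3a2, 4 were tested and 2 rose. Slc7a5, the light chain of the amino acid exchanger LAT1, was at 2.75 to 3.89 FPKM in nAAC mice and 0.561 to 1.38 FPKM in sham mice (log2 FC 1.18, limma adjusted P = 2.42e-05). Its heavy chain Slc3a2 had a log2 FC of 0.75 (limma adjusted P = 0.0121), and both were called higher under each of 5 other scalings. The exchanger that the chains form together also carries large neutral amino acids. The carrier Slco1c1, best known in the blood-brain barrier, was at or below 0.0580 FPKM in every mouse.

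Of 7 tested partners of the deiodinases, which insert selenocysteine or control the stability of the enzyme, only Usp20 was called. This deubiquitinase, known to rescue the Dio2 protein from degradation, was at 7.69 to 10.3 FPKM in nAAC mice and 4.41 to 8.64 FPKM in sham mice (log2 FC 0.50, limma adjusted P = 0.0242), and it was called in 6 of 10 fits without 1 mouse and not with median-ratio scaling (log2 FC 0.26, limma adjusted P = 0.172). Wsb1 and Marchf6, which mark the Dio2 protein for degradation, had log2 FCs of 0.29 (limma adjusted P = 0.148) and -0.30 (limma adjusted P = 0.125). Marchf6 was called lower with median-ratio scaling (log2 FC -0.56, limma adjusted P = 0.0111).

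Thyroid hormone receptors bind DNA with retinoid X receptors. Rxrg, the form typical of muscle, was at 11.4 to 16.3 FPKM in nAAC mice and 19.8 to 35.9 FPKM in sham mice, with no overlap (log2 FC -0.82, limma adjusted P = 0.00193), and it was called lower in each of 5 other scalings. Rxra (log2 FC -0.15, limma adjusted P = 0.448) and Rxrb (log2 FC 0.44, limma adjusted P = 0.154) were not called, and Rxra was called lower with median-ratio scaling (log2 FC -0.40, limma adjusted P = 0.0211). Of 9 coactivator genes 2 rose, the methyltransferase gene Carm1 (log2 FC 0.66, limma adjusted P = 0.00374) and the Mediator subunit gene Med1 (log2 FC 0.32, limma adjusted P = 0.0335, with 0.09 under median-ratio scaling and called in 3 of 10 fits without 1 mouse). With median-ratio scaling 1 coactivator gene, Carm1, was higher and 1, Ppargc1a, was lower (log2 FC -0.57, limma adjusted P = 0.0261).

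Genes known to be raised by T3 in the heart moved in both directions. Of 11 tested 2 rose and 4 fell, and their median log2 FC was -0.26. With median-ratio scaling 1 rose and 6 fell, with Myh6 and Adrb1 (log2 FC -0.50, limma adjusted P = 0.0309) added to those called lower. Nppa, the atrial natriuretic peptide gene, was at 6293 to 11503 FPKM in nAAC mice and 86.5 to 154 FPKM in sham mice (log2 FC 6.07, limma adjusted P = 3.58e-09). Nppa is also known to rise with wall stress. Atp1b1, a subunit of the sodium pump, had a log2 FC of 0.51 (limma adjusted P = 0.0169) and was not called with median-ratio scaling (log2 FC 0.23, limma adjusted P = 0.308). Atp2a2, the calcium pump of the sarcoplasmic reticulum, was at 671 to 1220 FPKM in nAAC mice and 1485 to 1972 FPKM in sham mice (log2 FC -0.87, limma adjusted P = 0.0025). The potassium channel gene Kcnd2 was at 0.523 to 1.10 FPKM and 1.98 to 3.57 FPKM (log2 FC -1.22, limma adjusted P = 4.48e-05). Kcnd3, another potassium channel gene, also fell (log2 FC -0.37, limma adjusted P = 0.0492), and was called in 2 of 10 fits without 1 mouse. Myh6, the fast myosin of the adult rodent ventricle, was at 1312 to 2218 FPKM in nAAC mice and 1720 to 2538 FPKM in sham mice (log2 FC -0.27, limma adjusted P = 0.288), and was called lower with median-ratio scaling (log2 FC -0.55, limma adjusted P = 0.0272).

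Of 5 genes known to be lowered by T3 in the heart, 3 rose and 1 fell, with a median log2 FC of 0.45. With median-ratio scaling 1 rose (Myh7) and 2 fell (Pln and Adcy6, the latter with a log2 FC of -0.47 and a limma adjusted P of 0.0259). Myh7, the slow myosin of the fetal ventricle, was at 424 to 995 FPKM in nAAC mice and 66.4 to 125 FPKM in sham mice (log2 FC 2.75, limma adjusted P = 5.81e-06). Slc8a1, the sodium-calcium exchanger, had a log2 FC of 0.68 (limma adjusted P = 0.00681) and Adcy5, an adenylyl cyclase, had a log2 FC of 0.45 (limma adjusted P = 0.0229). With median-ratio scaling neither was called. Adcy5 was called in 7 of 10 fits without 1 mouse, and its log2 FC turned to -0.01 with length and GC trends removed. Pln, the inhibitor of the calcium pump, was at 1301 to 1450 FPKM in nAAC mice and 2292 to 2752 FPKM in sham mice (log2 FC -0.86, limma adjusted P = 0.00043). Pln and its target Atp2a2, which T3 is known to move in opposite directions, thus both fell. The mitochondrial carrier Ucp3, raised by T3 in muscle, was the 1 gene called of 5 tested T3 targets of other tissues, and it was at 0.729 to 12.9 FPKM in nAAC mice and 8.23 to 31.7 FPKM in sham mice (log2 FC -2.17, limma adjusted P = 0.00516). With median-ratio scaling Cpt1a (log2 FC -0.61, limma adjusted P = 0.0213), Me1 (-0.44, 0.0134) and Rasd2 (-0.36, 0.0185) were also called lower, so that 4 of the 5 were.

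**Figure D4:**
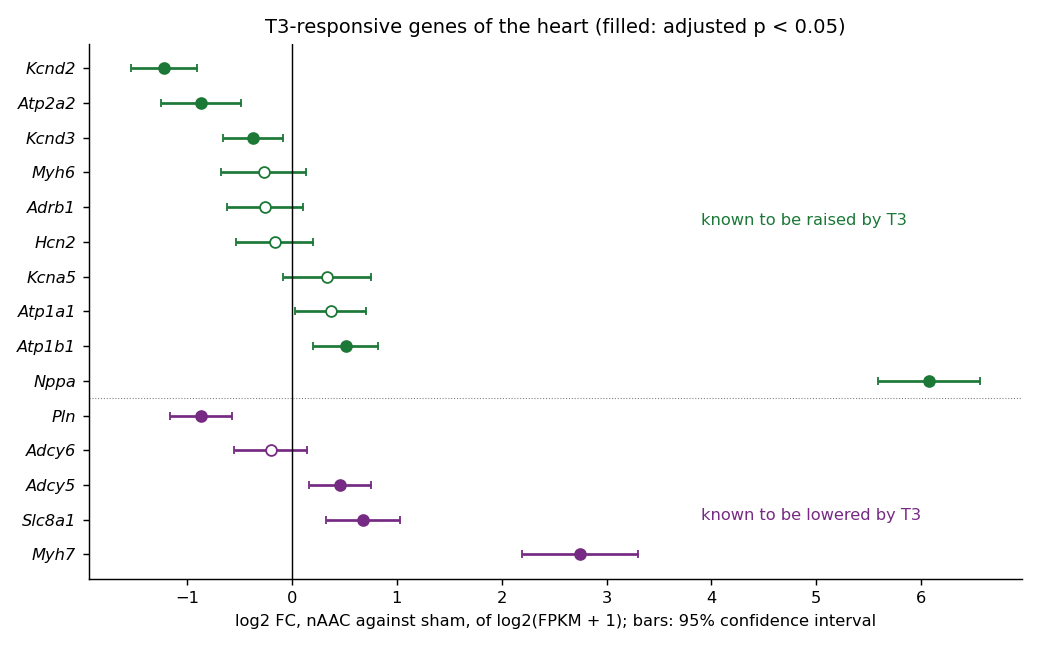
Log2 FC (horizontal axis, nAAC against sham, with 95% confidence intervals) of 10 of the 11 genes known to be raised by T3 in the heart (green) and 5 known to be lowered by it (purple), filled where the limma adjusted P is below 0.05. Both sets have genes on either side of 0, from -1.22 for Kcnd2 to 6.07 for Nppa and from -0.86 for Pln to 2.75 for Myh7.

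The other tissue markers moved as follows beside these results. Of 6 mural markers 4 rose, of 7 macrophage and leukocyte markers 2 rose, and of 7 endothelial markers 1 rose (Kdr, called in 4 of 10 fits without 1 mouse). Of all genes tested, 27.1% were called higher. With median-ratio scaling 2 mural markers, 1 macrophage and leukocyte marker and 0 endothelial markers were called higher, beside 1563 of all 11867 genes tested. Of 5 atrial markers tested none was called by limma (1 with an unadjusted P below 0.05), although Myl7 ranged from 0.654 to 79.8 FPKM in nAAC mice and from 1.16 to 22.3 FPKM in sham mice. No erythroid gene of 5, and not the 1 Schwann cell gene tested, was called by limma (0 with an unadjusted P below 0.05), and no skeletal muscle gene passed the filter. The part of these cells in the results was not tested, except that all calls of the 6 tested thyroid hormone genes held with Myl7 as a covariate.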

How the data were processed

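LV tissue was compared between 5 nAAC and 5 sham mice aged 4 weeks, with groups and replicate numbers 1 to 5 taken from the sample titles. RNA was extracted with Trizol and libraries were made with a NEBNext Ultra kit. The authors deposited a gene table for each mouse on mm10 (build from the submitters' processing notes) with coverage, a signal of mean reads per base, the FPKM derived from it, and the TPM deposited beside it. The aligner, the quantification tool, the annotation release and the use of strand are not given in the sources used here. Coordinates matched GENCODE M21 for 99.4% of 55141 shared genes. Library depth is an estimate, taken from the FPKM-to-coverage ratio that recurred most often (in 15.0 to 16.6% of genes). Rows of 1 gene ID were summed.

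The deposited values are not counts, so log2(FPKM + 1) was fitted with limma 3.58.1 (R 4.3.3) and an empirical Bayes trend, keeping genes whose mean FPKM reached 1, with Benjamini-Hochberg adjustment over all genes tested. Genes were named by the following rule: all 8 members, list genes past the threshold or defining their list, and the 3 nearest genes by correlation. Single values were tested with exact two-sided permutation tests (scipy 1.17.1). The script was tested on simulated data. The members and lists were chosen with earlier results of these data known, and the motif search for promoters, run on RefSeq sequence, was extended afterwards. No libraries were identical, and within groups r was 0.937 to 0.989 over genes. No source says that the mice of a group came from separate litters, so P values measure the spread between these 10 mice. Some genes of the lists are counted but not reported here by name. Alternatives covered scaling, unit, filter, pseudocount, covariates, the replicate block and leaving out each mouse.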

Additional observations from a re-analysis of the deposited data

Results flagged for a closer look

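Dio3 in sham mice was flagged because 1 mouse stood far from the others of its group. Sham 1 was at 0.0902 FPKM, and the other sham mice were at 0 to 0.0250 FPKM. On the log2(FPKM + 1) scale the gap to the nearest mouse was 0.714 of the range of the group, where the limit for 5 samples is 0.71. In all, 20 groups were examined, the 8 genes and 2 ratios in both groups of mice, and chance alone flags about 1 of 20.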

How the results depend on the processing

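The calls of Dio2 and Hr and the direction of all 6 tested genes held in every alternative and without each mouse in turn. Hr was under the limit for a DEG with median-ratio scaling (log2 FC 0.96), upper-quartile scaling (0.98) and length and GC trends removed (0.68). The log2 FC of Thra was near 0 with TPM (-0.03) and without sham 5 (-0.04). Thra, Thrb and Slc16a10 passed the threshold with median-ratio scaling (log2 FC -0.47, -0.86 and -0.49), with upper-quartile scaling (-0.45, -0.86 and -0.48) and with length and GC trends removed (-0.62, -0.83 and -0.48). Klf9 was no longer called with TPM (-0.37). The cause was not tested. Over fits that left out 1 mouse, the log2 FC ranged from -0.29 to -0.04 for Thra, -0.92 to -0.53 for Thrb, 2.76 to 3.02 for Dio2, -0.31 to -0.22 for Slc16a10, -0.62 to -0.46 for Klf9 and 1.11 to 1.21 for Hr. The log2 ratio of Thra to Thrb differed by 0.47 to 1.08 and that of Dio2 to Dio3 by 4.08 to 4.46. The exact permutation P of Thrb, 0.0476 with all mice, was 0.0635 to 0.0952 without any mouse but sham 4, and 0.0794 with a pseudocount of 0.1.

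In all, 3757 genes were called, 3211 higher and 546 lower. Without 1 mouse the count was 2899 to 4551, and that of the 26 list genes called was 20 to 30. With Xist as a covariate 1983 genes and 17 list genes were called. Higher and lower calls were 1563 and 1431 with median-ratio scaling, 1620 and 1359 with upper-quartile scaling, 4973 and 344 with TPM, and 1815 and 1733 with length and GC trends removed. DEGs numbered 701, and 1075 with TPM or 1121 with a pseudocount of 0.1. Depth-scaled coverage was added after the data were seen.

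Same-numbered mice did not deviate together (correlations -0.32 to 0.19), and none of 5 nAAC mice correlated best with its own number. This gave no sign that the numbers pair the mice, although such correlations cannot exclude a shared litter. With the replicate number as a block, 3426 genes and 21 list genes were called, and the log2 ratio of Dio2 to Dio3 differed by 4.31 (paired exact permutation P = 0.0625, the smallest possible). Values below about 0.3 FPKM, those of Dio3 and Crym in most mice and of Dio2 in sham mice, rest on little coverage.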
